A study of Prunus persica with 12 samples.

Results

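The last ripening step of the peach (Prunus persica) cultivar 'Hu Jing Mi Lu' was examined by comparing 2 RNA-seq libraries of fruit at stage 3 (HJ3) with 2 libraries of fruit at stage 2 (HJ2), taken by their titles from the 12 libraries of the series. The tissue was mesocarp, the edible flesh of the fruit. Both groups were labelled as strong in aroma and as soft melting, the texture class in which ripe flesh loses its firmness, and the soluble solids were given as 12.1 Brix for HJ2 and 12.5 Brix for HJ3. The other 8 libraries were 'Hu Jing Mi Lu' at stage 1 (HJ1, slight aroma, soft melting, no Brix) and 3 other cultivars at stage 2, namely 'Yu Lu' (YL2, strong aroma, soft melting, 14.9 Brix), 'Jin Xiu Huang Tao' (JX2, strong aroma, soft melting, 12 Brix) and 'Zhong Hua Shou Tao' (ZH2, slight aroma, hard melting, 18 Brix), with 2 libraries each. No treatment was given for any group, and the labels say neither how many fruit went into a library, nor whether both libraries of a group came from separate trees, nor how many days lay between stages. P-values therefore speak of the variation among the sequenced samples, which may be of a technical kind only.

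Peach is a climacteric fruit, in which a burst of ethylene drives the late phase of ripening. During that phase enzymes take apart the pectin and other polysaccharides of the cell wall, so that melting flesh softens, and the flesh forms lactones from fatty acids and terpenoids such as linalool, which give ripe peach much of its scent. The study set out to relate transcripts to softening and to these volatiles. The tables give identifiers without gene names, and 0 of their 27864 identifiers matched the reference gene table used here, so no identifier can be assigned to any of these pathways, no marker gene of the flesh could be looked up, and at most 2 genes that rose and 2 that fell are named, without function or position.

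Values were deposited as RPKM, the reads of a gene scaled to its length and to the depth of the library. They resolved into whole reads, which gave the depth of each library. HJ2 had 2440928 and 3222252 reads, and HJ3 had fewer, 1814325 and 1470038. For a gene of 1 kb, 3 reads, the number that a count of 0 still allows, were worth 1.23 and 0.931 RPKM in HJ2 and 1.65 and 2.04 RPKM in HJ3. Both pairs of libraries lay closer to each other than to the other stage. Between libraries of a pair, the median absolute difference over the 15217 genes tested was 0.21 in HJ2 and 0.28 in HJ3 on the log2(RPKM + 1) scale, and between the stages it ran from 0.51 to 0.56 in the 4 library pairs.

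From stage 2 to stage 3, 4480 of 15217 genes changed, which is 29.4% of those tested. Of these, 1623 were higher in HJ3 (10.7%) and 2857 were lower (18.8%), by limma's moderated test on log2(RPKM + 1) with Benjamini-Hochberg adjustment over all genes tested and a threshold of 0.05. The 2 libraries of one stage did not overlap with the 2 of the other in any of the called genes. Such separation was common, since 21.5% of all genes tested lay wholly higher in HJ3 and 41.2% wholly lower, and 1648 and 3418 of these genes were not called. The median log2 difference was 1.32 among the genes called higher, -1.13 among those called lower and -0.21 over all genes tested. As RNA was taken from whole flesh, fewer cells of a type and less RNA per cell cannot be told apart in any of these differences.

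**Figure D1:**
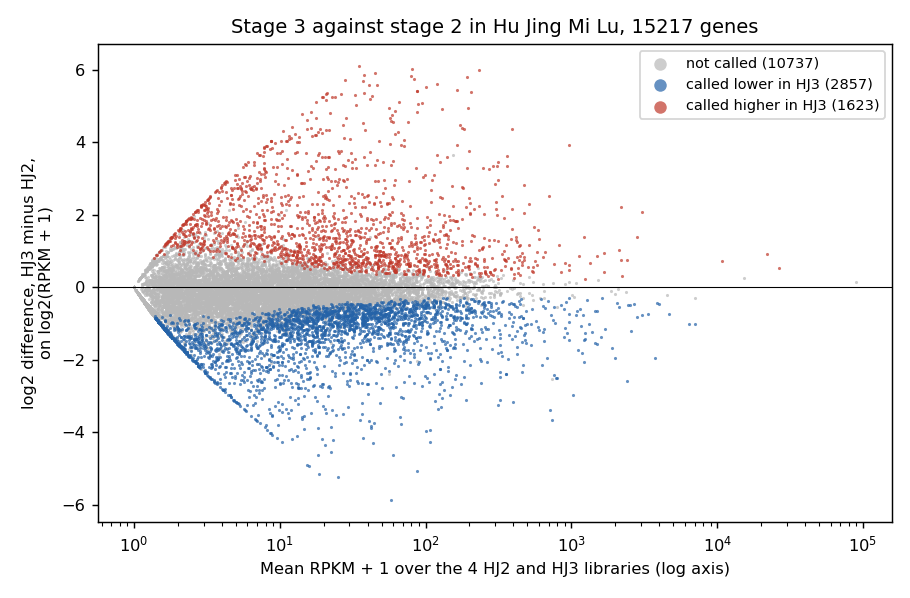
Log2 difference between HJ3 and HJ2 on the log2(RPKM + 1) scale (vertical axis) against the mean RPKM + 1 over the 4 libraries (horizontal log axis), 1 point per gene; red, 1623 genes called higher in HJ3, blue, 2857 called lower, grey, 10737 not called. The called genes span all levels, and the edges that fan out from the left are genes with no reads at one stage.

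The balance of rises and falls changed with the size of the difference. Falls prevailed among moderate differences, with 1271 genes lower and 640 higher at a log2 difference of 1 to 2, and 1013 lower and 445 higher at 0.5 to 1. At 2 to 3 the numbers were 310 lower and 245 higher, an order that turned to 286 higher and 246 lower after each library was rescaled by its median ratio and to 291 higher and 219 lower with the trend of each library over gene length removed. Among differences of 3 or more the order was the other way round, with 193 genes higher and 111 lower, so that 63.5% of the strongest called changes were rises. Rises made up 66.8% of that class when the 10 most abundant genes of a library were left out of its depth, 71.4% after rescaling, 76.3% without the length trend, and 64.4% by limma voom on whole reads. In the class of 1 to 2, falls prevailed under each of these settings, by 936 to 786 after rescaling. Under 0.5 the order also turned with rescaling, from 152 lower and 100 higher to 96 lower and 117 higher.

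**Figure D2:**
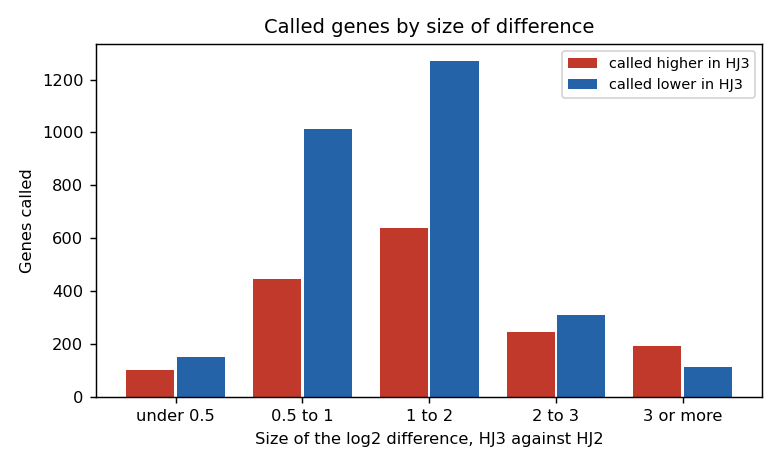
Number of called genes (vertical axis) by the size of their log2 difference between HJ3 and HJ2 (horizontal axis), red for genes higher in HJ3 and blue for genes lower. With RPKM as deposited, falls outnumber rises in every class up to 3, and rises outnumber falls, 193 to 111, at 3 or more; after rescaling by the median ratio, rises also led under 0.5 (117 to 96) and at 2 to 3 (286 to 246).

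The excess of falls over all called genes depended on the scale. RPKM shares out a fixed depth, so a gene that takes more of a library lowers all others. After rescaling by the median ratio, which centres the libraries and took the median log2 difference over the genes tested from -0.21 to -0.05, 2069 genes were called higher and 2046 lower (13.6% and 13.4% of those tested). All 1623 genes first called higher were among those 2069, while 2046 of the 2857 first called lower were called lower again. When the 10 most abundant genes of a library were left out of its depth, 1769 genes were higher and 2484 lower (11.6% and 16.3%). In none of the settings run was a called gene called in the opposite direction. The number of calls also rested on both HJ2 libraries. Without HJ2 replicate 1, 2886 genes were called, 1182 higher and 1704 lower, and without HJ2 replicate 2 the number lower was 1843. With the 4 libraries fitted alone, 1816 genes were lower.

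The called genes were more frequent at high levels. Of 1055 genes with a mean of 100 RPKM or more over the 4 libraries, 65.7% were called, 281 higher and 412 lower. The share called was 40.4% of 5615 genes at 10 to 100 RPKM, 20.6% of 6495 genes at 1 to 10 RPKM and 9.06% of 2052 genes under 1 RPKM. Precision followed the same order from 1 RPKM upwards. For the log2 difference, the median half-width of the 95% confidence interval was 0.27 at 100 RPKM or more. It was 0.45 at 10 to 100 RPKM and 0.79 at 1 to 10 RPKM. For genes under 1 RPKM no half-width is given. The share of falls was higher than that of rises at every level with RPKM as deposited. After rescaling, rises prevailed at 100 RPKM or more, by 353 to 312, and at 10 to 100 RPKM, by 1075 to 961.

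Falls were more frequent among short genes and rises among long ones. Lengths were worked back as the smallest that gave whole reads, so that the true length of a gene with few reads may be a multiple of the one used. Among the 5073 shortest genes, of up to 999 bases, 1263 fell and 476 rose. Among the 5072 longest, of 1645 bases or more, 604 fell and 625 rose, and the middle class held 990 falls and 522 rises. The median log2 difference was -0.39 in the shortest class, -0.23 in the middle and -0.08 in the longest. Of the called genes, 1078 higher and 1692 lower ones differed by at least 1 on the log2 scale (7.08% and 11.1% of those tested). Of these, 892 short genes were lower and 400 higher, against 270 lower and 338 higher among the long ones.

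Genes with at least 100 reads in all over the 12 libraries, which leave less room for such errors, gave the same order: 961 fell and 298 rose in the shortest class, and 549 fell and 590 rose in the longest. The contrast with length was present at each level from 1 RPKM upwards and was larger among abundant genes. The log2(RPKM + 1) scale understates the change of low genes, and its part in this order was not tested. At 100 RPKM or more, the median log2 difference was -0.49 for short genes and 0.15 for long ones, a gap of 0.64. There, 209 short genes fell and 63 rose, while 72 long genes fell and 119 rose. At 10 to 100 RPKM the gap was 0.42, and at 1 to 10 RPKM it was 0.30, while under 1 RPKM it was -0.04. Over the 6826 genes with a mean of at least 10 RPKM across the 6 groups, divided anew into 3 length classes, the gap between longest and shortest was 0.45 for HJ3 against HJ2. It was 0.39 to 0.50 in the 4 pairings of single HJ3 and HJ2 libraries. Between the libraries of a single group it lay between -0.08 (JX2) and 0.09 (HJ3), so that the gap between the stages exceeded each of the 6 gaps between replicates.

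Short genes were also lower in the other comparisons made on the same 6826 genes, by smaller gaps. The gap was 0.16 for HJ2 against HJ1, and 0.22, 0.24 and 0.21 for YL2, JX2 and ZH2 against HJ2, comparisons that share the HJ2 libraries with the one described here. The mean length of the genes in the transcript pool, weighted by RPKM, was 1310 and 1314 bases in the HJ2 libraries and 1383 and 1392 bases in the HJ3 libraries. The HJ3 values were the highest of the 12 libraries, next to 1370 and 1381 bases in YL2, and HJ1 had the lowest, 1254 and 1274 bases. For HJ3 against HJ2 an exact two-sided permutation test gave p = 0.33, the smallest that 2 libraries against 2 allow. When the trend of each library over gene length was removed (a setting chosen once the results were known), 3912 genes passed limma's test, 1913 higher and 1999 lower (12.6% and 13.1% of those tested). In that setting the short class held 811 falls and 630 rises and the long class 532 falls and 630 rises, and 1608 of the 1623 genes first called higher and 1993 of the 2857 first called lower were called again. What lay behind the length trend was not tested.

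**Figure D3:**
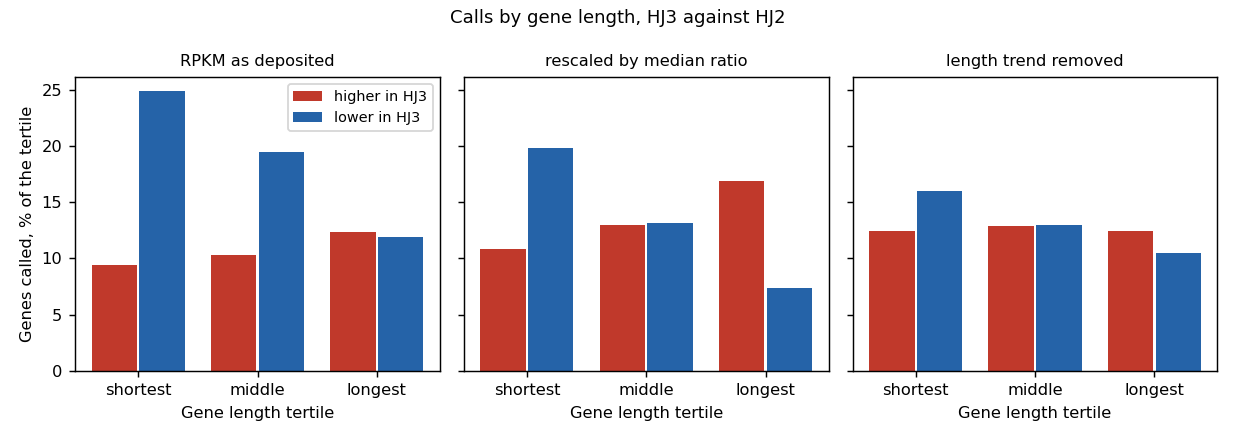
Percent of genes called higher (red) and lower (blue) in HJ3 in each of 3 equal classes of the tested genes by length (horizontal axis), with RPKM as deposited, after rescaling by the median ratio and after removal of each library's length trend. The share of falls declines from short to long genes in all 3 panels, from 24.9% to 11.9% as deposited and from 16.0% to 10.5% without the length trend.

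The transcript pool was narrower in both HJ3 libraries than in both HJ2 libraries. The 10 most abundant genes of each library took 23.9% and 24.0% of the RPKM sum in the HJ2 libraries and 28.3% and 29.9% in the HJ3 libraries. The groups did not overlap, and the mean was 5.11 percentage points higher in HJ3. The effective number of genes, which is the number of equally abundant genes with the same Shannon entropy, was 1141 and 1121 in HJ2 and 946 and 846 in HJ3. The exact two-sided permutation p was 0.33 for both measures, again the smallest this design allows. Mean shares in the other groups were 27.5% in YL2, 30.9% in JX2, 32.4% in ZH2 and 16.3% in HJ1. Mean effective numbers there were 912 in YL2, 787 in JX2, 729 in ZH2 and 1948 in HJ1. A pool about as narrow as that of HJ3 was thus also found in the other cultivars at stage 2. The lists of the 10 most abundant genes by group mean shared 8 genes. Of the 12 genes on either list, 4 were called higher in HJ3, 4 lower and 4 were not called, with log2 differences of -0.30 to 0.27 for the last 4.

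The first few genes made up more of the rise in RPKM than of the fall. Genes called higher gained 127327 RPKM between the group means, of which 18.3% came from the first 2 genes, 34.1% from the first 10 and 50% from the first 46. Genes called lower changed by -165653 RPKM, with 5.58% in the first 2 genes, 17.5% in the first 10 and 50% within the first 81. The sets differ in size, with 1623 genes higher and 2857 lower, so 46 against 81 genes does not show a wider spread of the fall. In HJ2 the genes later called higher held 15.8% and 16.2% of the RPKM sum, and in HJ3 they held 34.1% and 35.0%. The genes called lower held 42.4% and 42.0% in HJ2 and 22.1% and 21.3% in HJ3. These shares come from the values by which the genes were called and describe the size of the turnover only.

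The largest gain in RPKM was that of ppa008791m, a gene of 1398 bases by its worked-back length. Its RPKM was 15786 and 14895 in the HJ2 libraries and 27967 and 29832 in the HJ3 libraries. Both HJ3 libraries were far above both HJ2 libraries, and the gene went from 2.01% to 4.01% of the RPKM sum, at rank 3 in both stages. The log2 difference was 0.91 ± 0.0888 (SE, limma adjusted p = 1.97e-05), a ratio of means of 1.88. The gene was much lower before stage 2, at 689 and 732 RPKM in HJ1, where it held rank 127. In the other cultivars at stage 2 it stood nearer to HJ3 than to HJ2, with 27760 ± 1567 RPKM in JX2, 32499 ± 1380 in ZH2 and 39077 ± 886 in YL2 (SD, n = 2). With the HJ2 and HJ3 libraries fitted alone, the limma adjusted p was 0.0602 with the same log2 difference.

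The gene with the next largest gain, ppa009581m, was already abundant at stage 1. Its RPKM was 13429 and 16777 in HJ1, 20815 and 22672 in HJ2, and 29178 and 33774 in HJ3, so that the 3 stages did not overlap. It held rank 3 in HJ1 and rank 2 in HJ2 and HJ3. The log2 difference between HJ3 and HJ2 was 0.53 ± 0.125 (SE, limma adjusted p = 0.00812), a ratio of 1.45. This call was lost without HJ2 replicate 1 (log2 0.47, limma adjusted p = 0.0781), without HJ3 replicate 2 (log2 0.43, limma adjusted p = 0.0667), in a fit of the HJ libraries alone (limma adjusted p = 0.116) and in a fit of the 4 libraries alone (limma adjusted p = 0.208). The other cultivars at stage 2 stood below HJ3, at 17802 ± 1617 RPKM in JX2, 18531 ± 514 in ZH2 and 20971 ± 743 in YL2 (SD, n = 2).

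The largest loss in RPKM was that of ppa010382m, a gene of 1454 bases. Its RPKM was 9339 and 9536 in HJ2 and 4419 and 4964 in HJ3, a log2 difference of -1.01 ± 0.105 (SE, limma adjusted p = 3.39e-05), and HJ2 was 2.01 times HJ3. The HJ2 libraries were above all 10 other libraries, since HJ1 had 1290 and 1547 RPKM and the other cultivars ranged from 2265 to 3325 RPKM. The gene thus stood highest at stage 2 in this cultivar, and its HJ3 level was still above HJ1 and above the other cultivars.

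The second largest loss, of ppb011184m with 643 bases, had lower values at each later stage. Its RPKM was 8762 and 7692 in HJ1, 7045 and 4996 in HJ2, and 1405 and 1645 in HJ3. The HJ2 libraries differed by more than those of the other groups, and both still lay far above HJ3. The log2 difference was -1.96 ± 0.147 (SE, limma adjusted p = 3.05e-06), and HJ2 was 3.95 times HJ3, where the gene fell from rank 9 to rank 40. The other cultivars at stage 2 stood between HJ3 and HJ2, at 2090 ± 62.7 RPKM in JX2, 2539 ± 227 in YL2 and 2885 ± 30.1 in ZH2 (SD, n = 2).

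**Figure D4:**
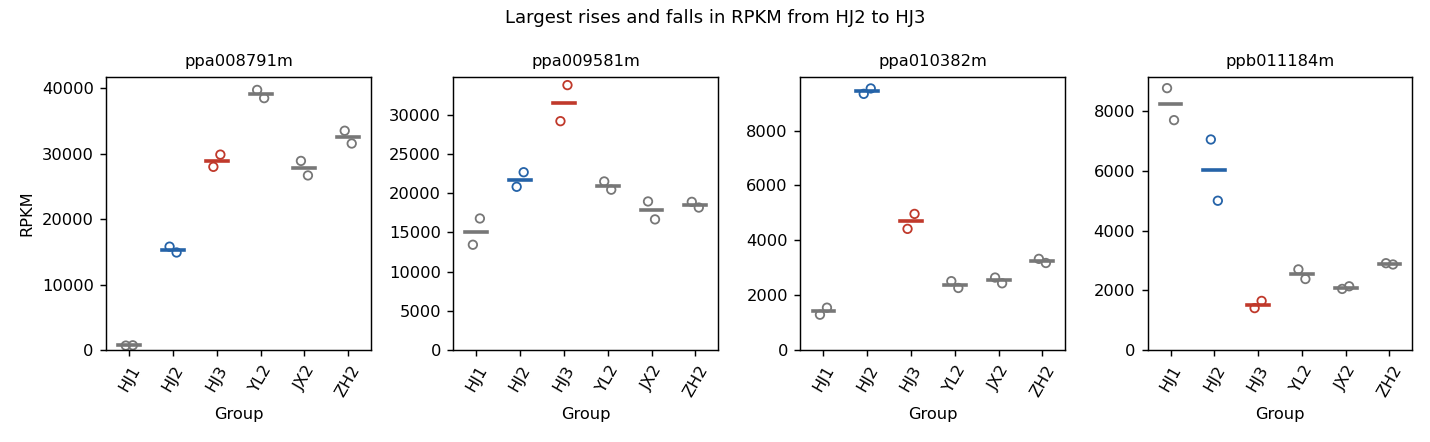
RPKM (vertical axis, from 0) of the 2 genes with the largest gain and the 2 with the largest loss in RPKM from HJ2 (blue) to HJ3 (red), in all 6 groups; circles are libraries and bars are group means. In each panel both HJ3 libraries lie on one side of both HJ2 libraries.

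Genes without reads at one of the stages were counted apart. Of 507 tested genes with 0 reads in both HJ2 libraries, 115 were called higher in HJ3, where their means ran from 0.763 to 68.0 RPKM with a median of 3.50. Set against 3 reads in the shallower HJ2 library, 93 of them were above that floor, and 11 were at least 10-fold higher. Of 1013 tested genes with 0 reads in both HJ3 libraries, 285 were called lower, from HJ2 means of 0.774 to 35.2 RPKM with a median of 2.12. Only 108 of these exceeded the floor of 3 reads in the shallower HJ3 library, and 2 were at least 10-fold lower, the largest bound being 20.1-fold. HJ3 had the smaller depth. At both stages most genes without reads belonged to the shortest class, 693 of 1013 in HJ3 and 366 of 507 in HJ2. As these genes have few reads, some of their lengths may be too short.

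The same genes were looked up in the groups outside the comparison. Of the 115 genes with 0 reads in HJ2, 78 had reads in HJ1, 33 had reads in each of the 4 groups outside the comparison, and 6 had none in any of those 8 libraries. Of the 285 genes with 0 reads in HJ3, 257 had reads in HJ1, 88 had reads in each of the other 4 groups, and 3 had none in the 8 libraries. Over all 15217 genes tested, only 470 (3.09%) had no reads in HJ1, a smaller share than in either set. A gene with 0 reads at one stage could pass the filter only through the other groups, so nothing is read from these counts.

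The levels of the called genes in the other groups were taken from libraries that did not enter the difference between HJ3 and HJ2, although they did enter the filter and the estimate of spread. For the 1623 genes higher in HJ3, the median RPKM was 9.54 in HJ2 and 33.3 in HJ3. It was 18.0 in HJ1, 20.5 in YL2, 15.3 in JX2 and 20.0 in ZH2, in each case between the 2 stages compared. The call selects genes with a low HJ2 and a high HJ3, which favours such a place, so nothing is read from it. Over all genes tested the medians ran from 6.26 in ZH2 to 9.89 in HJ1, with 7.71 in HJ2 and 6.77 in HJ3. Of the RPKM sum, the same 1623 genes took 16.4% ± 1.03 in HJ1, 31.8% ± 0.195 in YL2, 25.5% ± 0.456 in JX2 and 27.5% ± 0.228 in ZH2 (SD, n = 2). HJ1 stood near HJ2 in this share, and YL2 near HJ3; ppa008791m alone made up 5.37% of the sum in YL2 and 0.0898% in HJ1.

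For the 2857 genes lower in HJ3, the median RPKM was 26.2 in HJ2 and 10.7 in HJ3. In HJ1 it was higher than in HJ2, at 29.5, and in the other cultivars it was 12.6 in YL2, 14.7 in ZH2 and 16.7 in JX2. The median over all genes tested was also higher in HJ1 (9.89) than in HJ2 (7.71), so the higher HJ1 level is not particular to these genes. Their share of the RPKM sum was 43.6% ± 1.58 in HJ1, 23.9% ± 0.180 in YL2, 28.7% ± 0.456 in JX2 and 31.0% ± 0.318 in ZH2 (SD, n = 2). The medians of both libraries of a group lay within 1.53 RPKM of each other in all 6 groups for both sets of genes.

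Many of the called genes reached levels outside those of the other groups. Of the genes called higher, 586 (36.1%) were higher in both HJ3 libraries than in all 8 libraries of HJ1, YL2, JX2 and ZH2, against 5.36% of all genes tested. In 428 of them (26.4%) both HJ2 libraries lay below all 8 others, against 4.07% of all genes. Of the genes called lower, HJ3 lay below all 8 others in 501 (17.5%), against 4.93%, and HJ2 lay above all 8 in 665 (23.3%), against 6.83%. The call itself selects genes in which HJ3 or HJ2 is extreme, so nothing is read from the excess over all genes. Among the falls, genes in which HJ2 stood apart outnumbered those in which HJ3 did, and among the rises the order was the opposite. Over all genes tested the order was the same. There, HJ2 lay above all 8 others in 1040 genes and HJ3 below in 750, while HJ3 lay above in 815 and HJ2 below in 619. The order is thus not particular to the called genes.

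**Figure D5:**
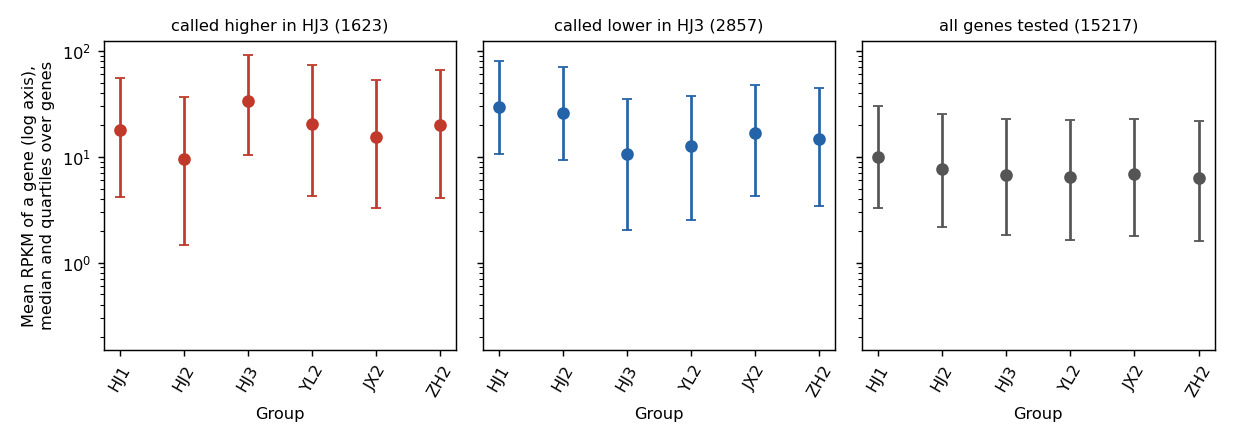
Median and quartiles, over genes, of the group mean RPKM (vertical log axis) in the 6 groups (horizontal axis), for genes called higher in HJ3, genes called lower and all genes tested. The called genes were selected by their HJ2 and HJ3 values, so nothing is read from other groups standing between these stages. The genes called higher had their lowest median in HJ2 (9.54 RPKM) and the other 4 groups stood between HJ2 and HJ3; the genes called lower had medians of 29.5 RPKM in HJ1 and 26.2 RPKM in HJ2 and 10.7 to 16.7 RPKM elsewhere.

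The remaining 10737 genes were not called, and for 5121 of them (47.7%) the 95% confidence interval of the log2 difference lay within 1 in either direction. For the other 5616 the interval reached beyond a log2 difference of 1, so a change of that size was not excluded at this depth. At an unadjusted p under 0.05, limma gave 6005 genes.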

How the data were processed

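RNA was measured in 12 libraries, 2 in each of 6 groups. The authors deposited RPKM per gene, per the file headers. The submitters' processing notes list TopHat 1.4.0, Bowtie 0.12.8, DESeq 1.10.1 and HTSeq 0.5.3 without saying what each did. As for the build, annotation and use of strand, these were not given in the sources used here, so genes that overlap or share reads are uncertain. Whole reads, library depths and gene lengths were worked back from the values (Python 3.11.15), the smallest length that gave whole reads being taken. This succeeded for 17316 of the 17316 genes read in 2 or more libraries. A length was accepted only where all values of the gene came within 0.001 of a whole read, so that 100% of values do so by construction. The fit was limma 3.58.1 (R 4.3.3) on log2(RPKM + 1), with 6 group means, 6 residual degrees of freedom and a variance trend, over genes with at least 1 RPKM in at least 2 libraries. A log2 difference on this scale understates the change of low genes. Intervals and floors cover counting error or the spread between libraries only. The working back of reads and the limma fit were each tested on simulated data. Named genes are the 2 called genes with the largest rise and the 2 with the largest fall in mean RPKM and no overlap. Gene lists by product name could not be used, as 0 identifiers matched Prunus_persica_NCBIv2. Members, lists and rules were chosen with earlier results of these data known.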

Additional observations from a re-analysis of the deposited data

How the results depend on the processing

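The total of 4480 calls stayed within 1.5 times under each setting run except without HJ2 replicate 1 and with a log2 difference of at least 1 also required. That requirement left 2770 genes, 1078 higher and 1692 lower. Leaving out each of the 4 libraries gave totals of 2886 to 3865, with 1182 to 1352 higher and 1704 to 2513 lower. Fitting the 4 libraries alone gave 1816 lower genes, from fewer residual degrees of freedom. Limma voom on whole reads called 4768 genes. Groups shared little of the difference between replicates: the correlation of replicate 2 minus 1 was 0.0345 between HJ2 and HJ3 and -0.0667 to 0.0499 over all 15 pairs of groups. The labels do not say whether replicate numbers pair the libraries, and these correlations cannot decide it. The fit with the replicate block called 4370 genes, 1586 higher and 2784 lower. The share of the most abundant genes was 3.22 percentage points higher in HJ3 with 50 genes in place of 10 (the cause was not tested), 3.998 points higher with shares of reads, and 4.31 to 5.92 points higher without each library. The effective number of genes changed by -285.5 to -184.9. Of the named genes, ppa010382m and ppb011184m kept their calls under all settings. The required log2 difference of at least 1 was not reached by ppa008791m (0.91) and ppa009581m (0.53). Under the remaining settings ppa008791m kept its call in all but the fit of 4 libraries, and ppa009581m in all but 4. Depth limits the genes without reads, whose bounds were mostly small.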
